A study of Mus musculus with 2 samples.

Results

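Snap25 and 8 other genes of the SNARE secretion machinery (Snap23, Snap29, Vamp2, Vamp3, Vamp8, Stx3, Syt1 and Syt11) were followed in the ovulating mouse ovary with and without ulipristal acetate. The genes were taken by name, and all array probe sets that the platform annotation pairs with exactly 1 of them were used, which gave 29 probe sets for 9 of the 18193 genes named in this way. The ulipristal group was wild type CD-1 mice, 24 to 28 days old, given 5 IU of PMSG, 5 IU of hCG 48 h later and ulipristal acetate 2 h after hCG. The vehicle group had the same strain, age and hormones and received oil in place of the drug. PMSG is a gonadotropin that grows preovulatory follicles, hCG acts on the receptor of luteinizing hormone to start ovulation, and ulipristal is a ligand that modulates the progesterone receptor. Ovaries were collected at 11 h, a time whose starting point the labels do not give. The labels also leave out how many mice gave each RNA sample.

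SNARE proteins sit on vesicles and on target membranes and zip into a bundle that pulls the membranes together until they fuse. In regulated secretion the vesicle protein is a VAMP, the target membrane contributes a syntaxin and a protein of the SNAP-25 family, and synaptotagmins make fusion respond to calcium. SNAP-25 is best known from nerve terminals and endocrine cells. In the mouse ovary, Snap25 is known as a gene that granulosa cells switch on around ovulation in dependence on the progesterone receptor, and its protein has been linked to the release of cytokines from those cells.

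Each treatment had 1 array, so there was no spread between animals or arrays and no test could be made. Every difference below is between these 2 RNA samples. Signals are MAS5 values in arbitrary units, which combine the probes of a probe set into 1 number and were scaled to the same trimmed mean on both arrays. Each set of probes has its own brightness, so no gene was called more abundant than another, and signals of different probe sets were matched only to choose probe sets of like brightness. Ratios are ulipristal over vehicle on the log2 scale, after signals under 7.17 (the 25th percentile of both arrays) had been raised to that floor, and a fold that meets the floor is a lower bound. A probe set counted as measured where its mean log2 signal corresponded to 30.8 or more, the median of all, and a gene was represented by its brightest probe set. In a whole organ, fewer cells of a type and less RNA per cell cannot be told apart. The tissue label was borne out by ovarian markers, since 7 of 8 oocyte markers, 7 of 7 granulosa markers and 4 of 4 markers of theca and luteal steroid cells with a probe set were measured. Markers of other tissues and cells were present too, since 7 of 7 oviduct, 6 of 6 endothelial and 6 of 6 macrophage markers were also measured, among them the oviduct gene Ovgp1 at 5642 with ulipristal and 3641 with vehicle.

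Snap25 was the 1 member that differed by 2-fold or more, and it was lower in the ulipristal ovary. Across all measured genes 1.56% were lower by that much. Its brighter probe set read 2.47 on the ulipristal array and 144 on the vehicle array. Its dimmer probe set read 0.457 on the ulipristal array and 12.2 on the vehicle array. Both probe sets thus stood above the floor with vehicle and below it with ulipristal. The brighter one gave a signal at least 20.1-fold lower (log2 ratio -4.33), and the dimmer one, which was not bright enough to count as measured, at least 1.70-fold lower. Taken without a floor, the 2 ratios would be 58.6-fold and 26.7-fold, but signals this low carry little information on size. Snap25 counted as measured by a small margin, with a mean of 32.2 against the limit of 30.8, and its bound depends on the floor. With the floor at the 50th percentile it was at least 4.63-fold lower (log2 ratio -2.21), and with 50 added to every signal the ratio was -1.89.

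Few probe sets of this brightness showed such a difference. On the vehicle array 9032 non-control probe sets read between 72.2 and 289, that is within 2-fold of the brighter Snap25 probe set. Their median signal on the ulipristal array was 150. Only 4 of them (0.0443%) lay below the floor on the ulipristal array. These were the Snap25 probe set itself, a probe set of Ankrd1 and 2 probe sets that are unnamed here. In the opposite direction, 9478 probe sets lay in that range on the ulipristal array, and 0 of these lay below the floor on the vehicle array. Snap25 was chosen with earlier results of these data known, and its own vehicle signal set the range. These counts therefore only place it among the probe sets of these 2 arrays and are no test of the difference.

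**Figure D1:**
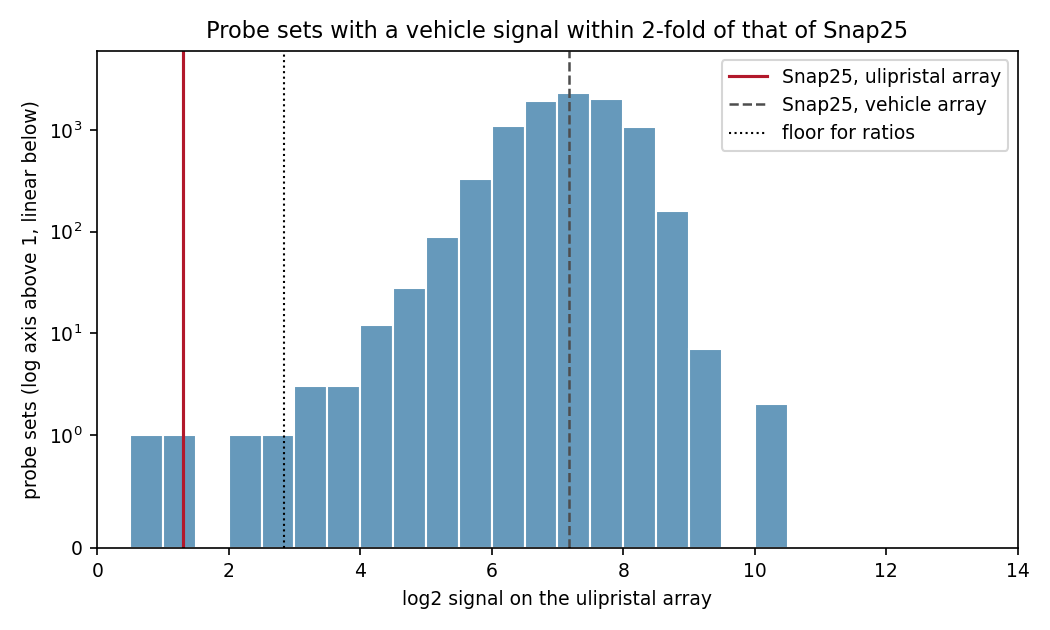
Distribution of log2 signals on the ulipristal array for the 9032 probe sets whose vehicle signal was within 2-fold of that of the brighter Snap25 probe set. Bars count probe sets, the solid line marks Snap25 on the ulipristal array, the dashed line marks it on the vehicle array, and the dotted line marks the floor, below which 4 probe sets lie.

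The other members of the SNAP-25 family did not share this difference. Snap23, the widely expressed relative that takes the place of SNAP-25 at the plasma membrane of most cells, read 188 on the ulipristal array and 164 on the vehicle array (log2 ratio 0.19). Its other 2 probe sets read 114 and 66.9 with ulipristal, against 78.1 and 50.2 with vehicle. All 3 were thus slightly higher with ulipristal, by 1.14-fold to 1.46-fold. Snap29, which acts in fusion inside the cell and in the joining of autophagosomes with lysosomes, read 99.0 on the ulipristal array and 76.3 on the vehicle array (log2 ratio 0.38). A second Snap29 probe set read 39.3 with ulipristal and 31.0 with vehicle, whereas the third read 27.2 with ulipristal and 42.3 with vehicle. The Snap29 probe sets therefore disagreed in direction, with log2 ratios from -0.64 to 0.38. Relative to Snap23 on the same arrays, the Snap25 signal was at least 23.0-fold lower with ulipristal. Because the Snap25 ratio met the floor, this bound depends on the floor and on the scaling of the arrays. Snap47, the remaining gene of this family in the wider list, was chosen after its values were seen. Its brightest probe set, of a kind that can bind other transcripts, read 1412 with ulipristal and 1510 with vehicle. The other measured Snap47 probe set read 499 with ulipristal and 319 with vehicle, 1.56-fold higher, so the 2 disagreed in direction.

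**Figure D2:**
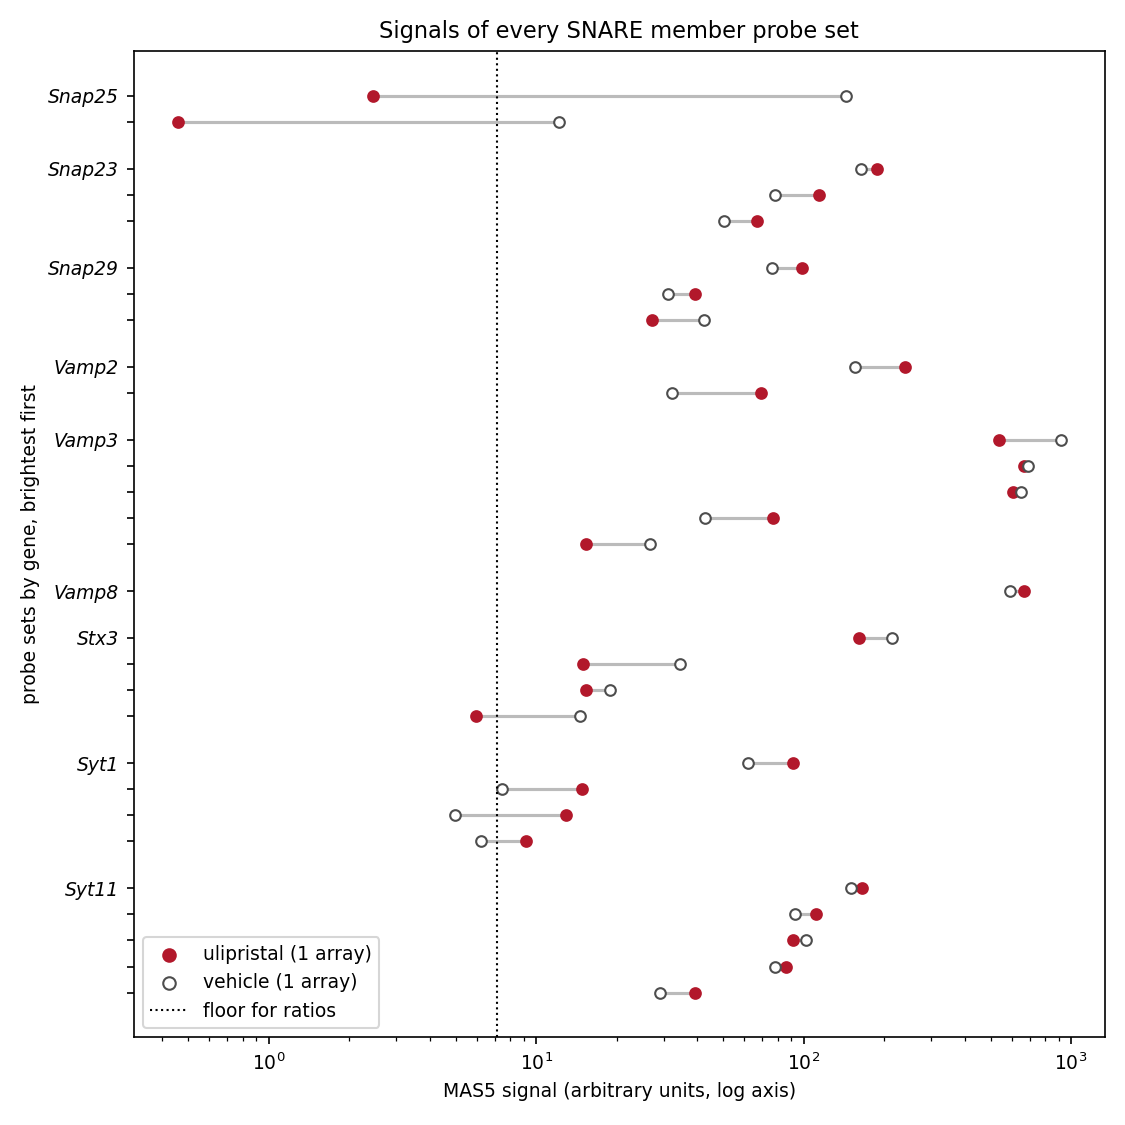
MAS5 signals (arbitrary units, log axis) of all 29 member probe sets, grouped by gene with the brightest first. Filled points are the ulipristal array, open points the vehicle array, and the dotted line the floor of 7.17. Only the 2 Snap25 probe sets are separated by more than 3-fold, Stx3 lies lower on all 4 probe sets with ulipristal, and Syt1 lies higher on all 4.

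The vesicle SNAREs stayed within 2-fold on their brightest probe sets. Vamp2, the vesicle partner of SNAP-25 in synaptic release, read 239 on the ulipristal array and 156 on the vehicle array, 1.54-fold higher. Its dimmer probe set read 69.4 with ulipristal and 32.2 with vehicle, 2.15-fold higher, and was the 1 measured member probe set at least 2-fold higher. Of the 21 measured member probe sets 1 lay past 2-fold in each direction, beside 3.06% of all measured probe sets on the higher side and 2.22% on the lower side. Both Vamp2 probe sets were therefore higher with ulipristal, and 11.0% of all measured genes had a higher ratio than Vamp2.

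Vamp3, also called cellubrevin, serves recycling endosomes and secretion in many cell types. Its brightest probe set read 539 on the ulipristal array and 914 on the vehicle array, 1.70-fold lower. The next brightest ones read 665 and 604 with ulipristal, against 687 and 651 with vehicle, which is 1.03-fold and 1.08-fold lower. Another read 76.6 with ulipristal and 42.7 with vehicle, 1.79-fold higher. The last, too dim to count as measured, read 15.4 with ulipristal and 26.7 with vehicle. The brightest Vamp3 probe set has an x in its name, which marks probes that can bind other transcripts, and without such probe sets the Vamp3 log2 ratio was -0.11 in place of -0.76. No direction is drawn for Vamp3 from probe sets that disagree to this extent. Vamp8, a VAMP of endosomes and of granule secretion in blood and gland cells, had 1 probe set, which read 667 with ulipristal and 589 with vehicle (1.13-fold higher).

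Stx3, a syntaxin of the apical membrane in epithelia, was lower with ulipristal on each of its 4 probe sets. The brightest read 162 on the ulipristal array and 214 on the vehicle array, 1.33-fold lower. The others were too dim to count as measured, with signals of 15.0, 15.3 and 5.95 with ulipristal, against 34.6, 18.9 and 14.6 with vehicle. Of these, 2 were past 2-fold, by 2.30-fold and by at least 2.04-fold. Of all measured genes, 8.61% had a lower ratio than Stx3.

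Syt1, the calcium sensor of fast synaptic release, was higher with ulipristal on each of its 4 probe sets. The brightest read 91.1 on the ulipristal array and 62.2 on the vehicle array, 1.46-fold higher, and 13.7% of measured genes had a higher ratio. The other 3 read 14.8, 13.0 and 9.13 with ulipristal, against 7.47, 4.96 and 6.20 with vehicle, all close to the floor. Syt11, a synaptotagmin that does not bind calcium, read 165 with ulipristal and 151 with vehicle on its brightest probe set (1.09-fold higher). Its 5 probe sets were all measured and gave log2 ratios from -0.17 to 0.43, with 4 above 0 and 1 below.

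All 9 members counted as measured, each on its brightest probe set, and Snap25 did so only through its vehicle signal. Of these genes 1 passed 2-fold downwards and 0 upwards. The same thresholds were passed downwards by 1.56% and upwards by 3.34% of all 11364 measured genes (177 and 380 genes). The balance depended on scaling, with 199 genes downwards and 267 upwards after quantile normalization and 203 downwards and 261 upwards after lowess centring. Ratios were above 0 for 6 members and below 0 for 3, and 60.0% of all measured genes were above 0. The median log2 ratio of the members was 0.18, that of all measured genes 0.09. Without Snap25 the members ran from -0.76 (Vamp3) to 0.62 (Vamp2), with a median of 0.19.

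**Figure D3:**
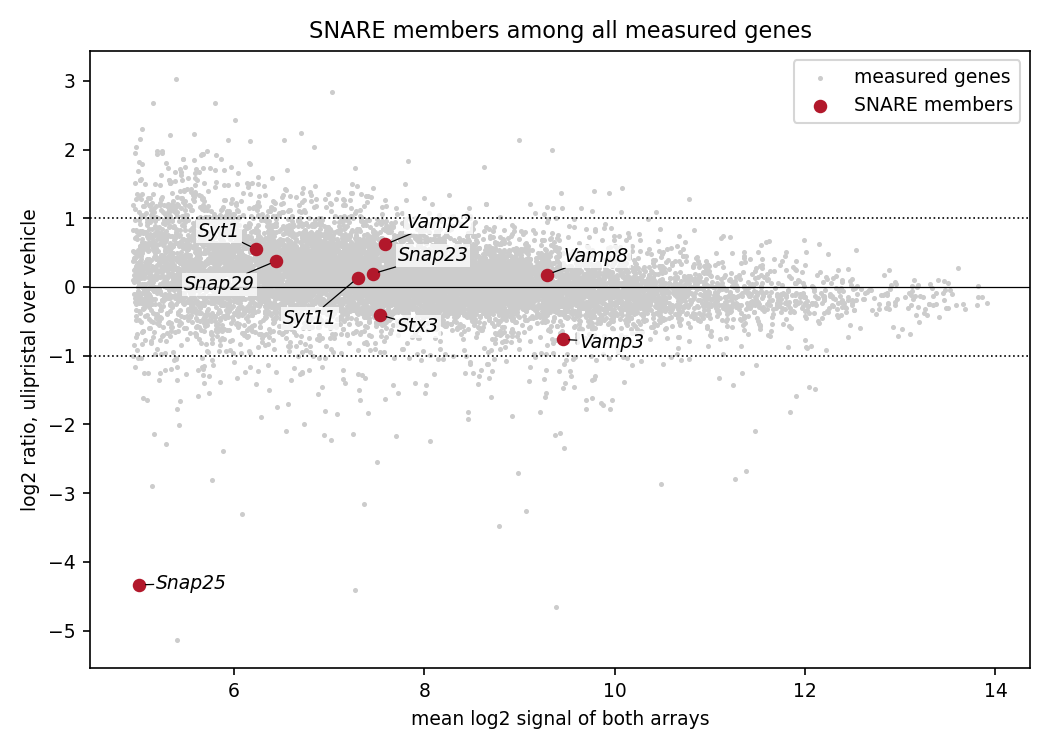
Log2 ratio of ulipristal over vehicle against mean log2 signal for the 11364 measured genes (grey) and the 9 members (red, named), with dotted lines at 2-fold. Snap25 lies at -4.33, and the other 8 members lie between the 2-fold lines.

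The spread of ratios among probe sets of like brightness gives a scale for these differences, although it holds any treatment difference as well as noise. It was not used for Snap25, whose mean signal and ratio were both set by the floor. Among the 500 measured probe sets nearest in mean signal to the brightest Vamp2 probe set, the middle 90% of log2 ratios ran from -0.57 to 0.79. For Stx3 the same range was -0.54 to 0.75, and for Syt1 it was -0.71 to 0.90. The ratios of the brightest probe sets of these 3 genes (0.62, -0.41 and 0.55) lay inside. The Vamp3 range was -0.76 to 0.50, and its ratio of -0.76 lay at the lower edge.

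The genes whose pair of signals lay nearest to that of Snap25 were Ankrd1, Il11, Fosl1 and Epgn. Nearness was the distance between floored log2 signals over the 2 samples. It is only a way of choosing genes to show, since 2 samples are too few for a shared pattern, each probe set has its own brightness and the ulipristal signal of Snap25 was set by the floor. Ankrd1, an ankyrin repeat protein, read 5.04 on the ulipristal array and 251 on the vehicle array. Il11, a cytokine that signals through gp130, read 12.9 with ulipristal and 96.5 with vehicle. Fosl1, a subunit of the transcription factor AP-1, read 17.7 with ulipristal and 86.4 with vehicle. Epgn, the epidermal growth factor-like ligand epigen, read 20.6 with ulipristal and 145 with vehicle. On their brightest probe sets all 4 were lower with ulipristal, by 4.87-fold (Fosl1) to at least 35.1-fold (Ankrd1), as the choice by nearness to Snap25 fixes. The second Ankrd1 probe set read 11.2 with ulipristal and 145 with vehicle (13.0-fold lower). The second Fosl1 probe set, too dim to count as measured, read 3.24 with ulipristal and 8.96 with vehicle (at least 1.25-fold lower).

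The wider secretory machinery was followed in 120 listed genes, the members among them, of which 115 had a single-gene probe set and 86 were measured. Snap25 was the 1 gene at least 2-fold lower and Cplx1 the 1 gene at least 2-fold higher. Each is 1.16% of the list, near or under the 1.56% lower and 3.34% higher among all measured genes. The other 85 measured genes had a median log2 ratio of 0.15 and ran from -0.86 to 1.47.

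Cplx1 encodes complexin 1, which binds the assembled SNARE bundle and holds it ready for calcium. Its brightest probe set read 193 on the ulipristal array and 69.7 on the vehicle array, 2.77-fold higher. A second read 84.7 with ulipristal and 32.3 with vehicle (2.62-fold higher). The third, not bright enough to count as measured, read 25.3 with ulipristal and 32.7 with vehicle. The 2 measured Cplx1 probe sets thus agreed and the dim one did not. The 24 measured SNARE regulators include Munc13 priming proteins, and NSF with its attachment proteins, which together take used bundles apart. Of these regulators 18 were above 0 and 6 below, with a median log2 ratio of 0.16. Among all measured genes 60.0% were above 0, with a median of 0.09.

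Among 13 measured syntaxins 0 reached 2-fold on the brightest probe set, and their median log2 ratio was -0.02. The lowest was Stx11, a syntaxin of immune cell granule release, with 82.5 on the ulipristal array and 150 on the vehicle array (1.82-fold lower). The other Stx11 probe set read 55.9 with ulipristal and 131 with vehicle (2.35-fold lower), so both were lower. The median over its probe sets therefore put Stx11 past 2-fold. Stx1a, the plasma membrane partner of SNAP-25 at synapses, was chosen after its values were seen. Its brightest probe set, of the x kind, read 399 with ulipristal and 347 with vehicle, and the other read 123 with ulipristal and 61.1 with vehicle, 2.01-fold higher. In the list of VAMPs 0 of 6 measured genes reached 2-fold, and 3 were above 0 and 3 below. Of all measured genes 95.1% lay within 2-fold, so counts of 0 in lists this short do not set these families apart.

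In the synaptotagmin group, with the synaptotagmin-like and Doc2 proteins, 8 of 22 genes with a probe set were measured and 0 reached 2-fold. Among all measured genes 95.1% lay within 2-fold. Syt7, a slow, high-affinity calcium sensor of exocytosis, had the highest ratio, with 343 on the ulipristal array and 193 on the vehicle array (1.78-fold higher). Its other measured probe sets read 121 and 88.5 with ulipristal, against 82.1 and 79.0 with vehicle, and the dimmest read 11.9 with ulipristal and 18.3 with vehicle. Doc2b, a related calcium-binding protein, read 89.6 with ulipristal and 53.1 with vehicle (1.69-fold higher). Most of the group was too dim to measure, so nothing is drawn for those 14 genes.

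The small GTPases of secretion and their effectors lay mostly above 0, with 9 of 10 measured genes higher and a median log2 ratio of 0.38, and 0 reached 2-fold. Of all measured genes 60.0% were above 0, with a median of 0.09, and 95.1% lay within 2-fold. Rab11b, which serves recycling endosomes, read 515 on the ulipristal array and 266 on the vehicle array (1.93-fold higher). Its other probe sets gave log2 ratios of 0.39 and -0.11. Rab27a, which tethers secretory granules near the plasma membrane, read 257 with ulipristal and 161 with vehicle (1.60-fold higher), and its 3 dimmer probe sets were also higher. SNAREs of the endoplasmic reticulum and Golgi had 12 of 12 genes measured and 0 past 2-fold, with a median of 0.11. The lowest of these were Sec22c (38.2 with ulipristal and 60.9 with vehicle), a SNARE-like protein of the early secretory pathway, and Vti1a (60.0 with ulipristal and 89.2 with vehicle), a SNARE of the Golgi and endosomes. The other Sec22c probe set and 2 of the other Vti1a probe sets were higher with ulipristal. The exocyst, the complex that tethers vesicles to the plasma membrane, had 9 of 9 genes measured and 0 past 2-fold. Its outermost genes were Exoc5, with 512 with ulipristal and 667 with vehicle, and Exoc6, with 147 with ulipristal and 115 with vehicle.

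**Figure D4:**
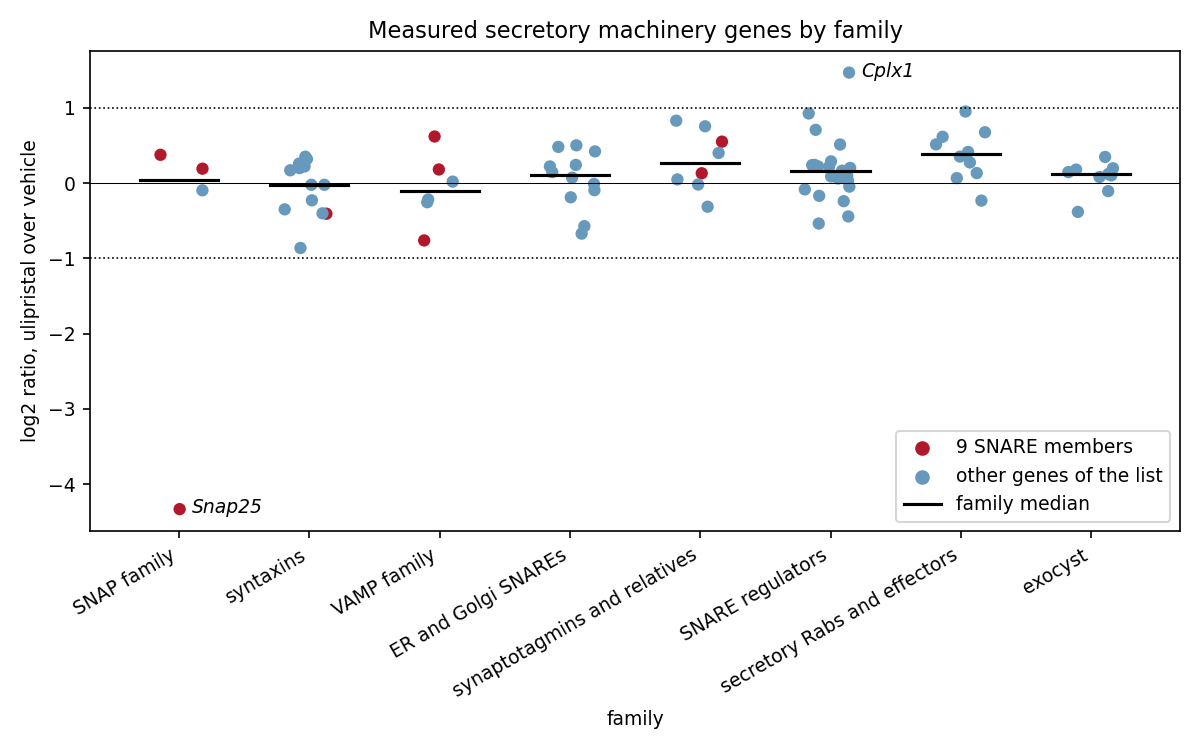
Log2 ratio of ulipristal over vehicle for the 86 measured secretory machinery genes, by family. Each point is a gene on its brightest probe set, the 9 members are red, bars are family medians and dotted lines mark 2-fold. Snap25 and Cplx1 are the points past 2-fold, and the family medians lie between -0.10 and 0.38.

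Markers of other cells that could hold Snap25 or its partners were read beside these values. Of 16 markers of neurons and neuroendocrine cells 2 were measured, and 0 of those were past 2-fold. Their summed signal was 490 on the ulipristal array and 416 on the vehicle array. No marker was listed at 0, and 3 with ulipristal and 4 with vehicle lay below the floor. Scg2, a granin of secretory granules, was among the 3, with 1.10 with ulipristal and 23.4 with vehicle, while Syp, the synaptic vesicle protein synaptophysin, read 16.5 with ulipristal and 10.5 with vehicle. The mast cell markers were all too dim to measure (0 of 6), with sums of 38.8 with ulipristal and 54.5 with vehicle. The measured neutrophil markers split in direction, with 2 of 3 past 2-fold on the lower side and 1 on the higher side. S100a8 read 73.5 with ulipristal and 202 with vehicle (2.75-fold lower), and S100a9 read 40.6 with ulipristal and 150 with vehicle (3.69-fold lower). The higher one was Ltf, with 175 with ulipristal and 64.3 with vehicle (2.72-fold higher). Across all measured genes 1.56% were lower and 3.34% higher by 2-fold or more. The neutrophil sums were 328 with ulipristal and 507 with vehicle over 6 genes. The 3 that were not measured were Camp, Ngp and Csf3r. Camp, an antimicrobial peptide gene, read 5.58 with ulipristal and 43.9 with vehicle (at least 6.12-fold lower). Ngp, a neutrophil granule gene, read 12.3 with ulipristal and 27.5 with vehicle (2.24-fold lower). Csf3r read 21.1 with ulipristal and 19.1 with vehicle (1.10-fold higher). Camp thus stood above the floor with vehicle and below it with ulipristal, as Snap25 did. So did Scg2 and Scg3 of the neuron list. So did Ms4a2 and Cma1 of the mast cell list, the latter with 2.52 with ulipristal and 23.4 with vehicle. Nefl, Nefm, Syn1, Mcpt4 and Tpsb2 of these lists stood above the floor with ulipristal and below it with vehicle. No mast cell or neutrophil marker was listed at 0. The part of neutrophils in the Snap25 difference was not tested.

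Other marker lists were mostly higher on the ulipristal array, as were Vamp2, Syt1, Cplx1 and 9 of the 10 measured Rab genes and effectors. Lower were 1 granulosa marker (Amh), 1 endothelial marker (Cdh5), 1 theca and luteal steroid marker (Star) and 2 measured oocyte markers. Of all measured genes 3.34% passed 2-fold on the higher side. Oviduct markers had 6 of 7 members at least 2-fold higher, with sums of 6390 with ulipristal and 3933 with vehicle. Most of these sums was Ovgp1, with 5642 with ulipristal and 3641 with vehicle (1.55-fold higher). Granulosa markers had 3 of 7 at least 2-fold higher (sums of 16416 with ulipristal and 12303 with vehicle) and endothelial markers 2 of 6 (sums of 1415 with ulipristal and 1103 with vehicle). Macrophage markers had 1 of 6 at least 2-fold higher, with sums of 1248 with ulipristal and 1045 with vehicle. Oocyte markers (median log2 ratio 0.25) and markers of theca and luteal steroid cells (median 0.06) had 0 past 2-fold. None of the markers in the oviduct, granulosa, endothelial and macrophage lists was listed at 0 or lay below the floor. The part of tissue content in the higher signals was not tested.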

How the data were processed

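Whole-ovary total RNA was labelled from 100 ng and hybridised to 2 Affymetrix mouse expression arrays. The authors deposited 1 linear intensity per probe set and array; MAS5 and version 1 of Affymetrix Expression Console appear in the submitters' processing notes, with no step assigned to either. Dropping 2% of values at each end left a mean of 150.001 on both arrays, so the scaling hides any change common to the bulk of genes. Detection calls were not used. A genome build is not stated in the sources used here, and no coordinates are printed. Only probe sets that the platform annotation pairs with 1 gene gave gene values. The steps were tested on simulated data with changes planted in measured genes. That test did not cover a gene far below the floor on 1 array, as Snap25 was. Alternatives changed the scaling, the floor, the filter, the choice of probe set and the fold threshold. The 9 members and the wider gene lists were chosen with earlier results of these data known. The text names all 9 members, the list genes at or past 2-fold in each family (otherwise the 2 with the largest ratios), the 4 genes nearest to Snap25 in signal, and marker genes beside a result. Other genes are said to have been chosen after their values were seen. Computation used Python 3.11.15 with pandas 2.3.3, numpy 2.4.6 and statsmodels 0.14.6, and figures were drawn with matplotlib 3.10.9.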

Additional observations from a re-analysis of the deposited data

How the results depend on the processing

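No paired analysis was possible because each treatment had 1 array and no result comes from a test. A ratio was taken as moved when it shifted by 1.5-fold or more. Snap25 was lower under all 8 alternatives that gave it a ratio, with log2 ratios from -4.45 to -1.89. The ratio moved to -2.21 with the floor at the 50th percentile and to -1.89 with 50 added to every signal, as raising low signals must do. With no floor its mean signal of 18.9 was under the limit, and with the filter at the 75th percentile it was also not measured, so the count of members at least 2-fold lower was 0 under both, as was the count in the wider list. At 1.5-fold, 2 of the 9 members were lower (Snap25 and Vamp3) and 1 higher (Vamp2). In the wider list 4 of 86 genes were lower and 9 higher, beside 520 lower and 1402 higher of all 11364 measured genes. At 3-fold 0 genes of that list were higher. The median over probe sets gave 2 of 86 lower (Snap25 and Stx11), beside 164 of all 11364 measured genes. Leaving out s and x probe sets gave 2 of 85 higher (Cplx1 and Stx1a), beside 392 of all 11023. Without the filter 2 of 115 list genes were lower and 4 higher, beside 460 lower and 1025 higher of all 18193 genes. With the filter at the 75th percentile 0 of 57 were higher, beside 58 of all 7058. The median of the members lay between 0.08 and 0.19 under 10 alternatives. The 8 other members kept their direction under every alternative that gave them a ratio, Vamp3 with log2 ratios as near to 0 as -0.08 (median over probe sets). Most alternatives used the same brightest probe set, so they say little on direction. A measured probe set of each of Vamp3, Snap29 and Syt11 went the other way (log2 ratios 0.84, -0.64 and -0.17). Among all genes, 177 were lower and 380 higher, against 98 lower and 54 higher with 50 added, 101 lower and 58 higher with the filter at the 75th percentile, 460 lower and 1025 higher without the filter, 520 lower and 1402 higher at 1.5-fold and 57 lower and 60 higher at 3-fold. Centring changed the split to 205 lower and 311 higher (median), 199 and 267 (quantile) and 203 and 261 (lowess). Signals near the floor and 1 array per treatment limit all of these values.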
